A study of Mus musculus with 2 samples.

Results

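SR proteins and the related Tra2 proteins are RNA-binding splicing factors, and this account describes RNA of 10 of their genes among 55536 annotated genes. The 10 genes were Srsf1, Srsf2, Srsf3, Srsf4, Srsf5, Srsf6, Srsf7, Srsf11, Tra2a and Tra2b. They were chosen by symbol and not by a limit on their levels, with earlier results of these data known. All 10 were found in every table. Total RNA was sequenced after depletion of ribosomal RNA from the nucleoplasmic fraction of C57BL/6J mouse bone marrow-derived macrophages, primary cells grown out of marrow. The cells had received 100 ng/ml of Lipid A, the portion of lipopolysaccharide that the receptor TLR4 recognises, for 30 min. There was 1 group of 2 libraries, labelled biological replicates 1 and 2, prepared from 1 µg of RNA for replicate 1 and from 500 ng for replicate 2. The sample descriptions call the fraction nucleoplasmic and other labels call it nuclear. Both name 1 donor entry and a biosample each, and the labels do not state separate cultures, so the spread between libraries may be technical. An unstimulated sample was not analysed here, so every value is a level after stimulation and no test of a condition was possible.

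An SR protein holds RNA recognition motifs and a tail rich in alternating arginine and serine. It binds short exonic sequences, recruits the machinery that recognises splice sites and so favours inclusion of the exon, and several members also accompany mRNA out of the nucleus. Many genes of the family are known to limit their own product. The protein favours inclusion of a cassette exon, often called a poison exon, that holds a premature stop codon, and the resulting mRNA is degraded in the cytoplasm by nonsense-mediated decay (NMD). Other copies can keep introns and stay in the nucleus. The annotation therefore lists protein-coding, NMD, retained-intron and processed (no open reading frame assigned) transcripts for these genes.

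In 7 of the 10 genes the GENCODE M21 annotation held such an exon, defined here as an internal exon of an NMD transcript that contains its stop codon and overlaps no exon of a transcript in the consensus coding set. There were 8 of these exons, since Srsf11 had 2. The sequences below are shown because transcripts that carry or skip these exons are a main readout of the account. Each begins at the exon's first base and runs 5′ to 3′ to the premature stop codon, which is in capitals. Positions are on mm10, with the strand of the gene.
Srsf3, chr17:29039454-29039909, plus strand: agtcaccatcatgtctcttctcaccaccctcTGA
Srsf4, chr4:131884276-131884482, plus strand: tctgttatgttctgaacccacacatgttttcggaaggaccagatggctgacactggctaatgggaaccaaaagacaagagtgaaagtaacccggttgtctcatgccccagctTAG
Srsf6, chr2:162932815-162933082, plus strand: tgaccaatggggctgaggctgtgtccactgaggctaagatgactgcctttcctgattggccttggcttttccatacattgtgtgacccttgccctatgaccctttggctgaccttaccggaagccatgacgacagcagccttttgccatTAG
Srsf7, chr17:80204622-80205081, minus strand: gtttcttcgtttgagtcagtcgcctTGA
Srsf11, chr3:158023243-158023359, minus strand: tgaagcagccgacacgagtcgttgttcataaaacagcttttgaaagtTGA
Srsf11, chr3:158024123-158024231, minus strand: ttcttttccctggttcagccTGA
Tra2a, chr6:49252803-49253108, minus strand: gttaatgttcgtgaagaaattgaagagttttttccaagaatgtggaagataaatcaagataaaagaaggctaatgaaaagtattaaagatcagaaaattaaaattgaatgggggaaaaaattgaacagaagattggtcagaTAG
Tra2b, chr16:22258986-22259261, minus strand: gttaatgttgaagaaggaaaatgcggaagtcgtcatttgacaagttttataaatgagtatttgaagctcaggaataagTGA

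The exons differed in how soon they stop the reading frame. In Srsf7 the stop codon ended at base 28 of a 460-base exon, and in Srsf3 it ended at base 34 of a 456-base exon. In Srsf6 it ended at base 152 of 268. The first 9 bases of the Tra2a and Tra2b exons were the same. Tra2 proteins are known to bind GAA-rich RNA, and the letters GAAGAA occurred 4 times in the 306-base Tra2a exon and 3 times in the 276-base Tra2b exon. They occurred 1 time in the Srsf7 exon and 0 times in the other 5 exons. On the opposite strand (TTCTTC in the exon) there was 1 match each in Srsf3, Srsf7 and the 109-base Srsf11 exon, and the 2 letter strings cannot overlap. Among annotated internal exons within 10% of each exon's length, GAAGAA was present in 23.3% for the Tra2a exon and in 22.0% for the Tra2b exon. It was present in 31.8% of exons near the Srsf7 exon in length, and TTCTTC was present in 18.2% for Srsf3, 18.4% for Srsf7 and 5.01% for that Srsf11 exon. A match describes the letters and is not a binding site.

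The libraries summed to 16037242 expected counts in replicate 1 and 14906686 in replicate 2. The 10 genes took 38600 reads, or 0.241% (95% Wilson interval 0.238 to 0.243%), in replicate 1. They took 25785 reads, or 0.173% (0.171 to 0.175%), in replicate 2, and the intervals cover counting error only. The labelled cell type carried its markers: 6 of 6 macrophage genes were detected in both libraries, against 0 of 3 genes each for B cells, T cells and fibroblasts and 1 of 4 for neutrophils. Short structural and mitochondrial RNA took 62.4% of TPM in replicate 1 and 72.2% in replicate 2. TPM is a length-corrected unit with a fixed sum per library. All other genes together thus held a smaller part of that sum in replicate 2. In RNA from a mass of cells, fewer cells and less RNA per cell cannot be told apart.

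All 10 genes were detected, at 1 TPM or more in each library, as were 20.7% of all annotated genes and 42.4% of protein-coding genes. The median over the 10 of their mean TPM was 70.3, and the median of 9783 protein-coding genes averaging 1 TPM or more was 7.995. The highest gene, Srsf5, stood 18.1-fold above the lowest, Srsf4, in mean TPM. In 7 of the 9 pairs of neighbours in the order of levels the ranges of the 2 libraries overlapped. They were apart only between Srsf11 and Srsf2 and, by a narrow gap, between Srsf7 and Srsf1. These ranges include the difference between the libraries. Within each library, Srsf5 stood above Srsf11, Srsf3 above Tra2a, Tra2b above Srsf6, Srsf6 above Srsf7 and Srsf1 above Srsf4. Among the overlapping neighbours, only Srsf2 with Srsf3 and Tra2a with Tra2b changed order between the libraries.

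**Figure D1:**
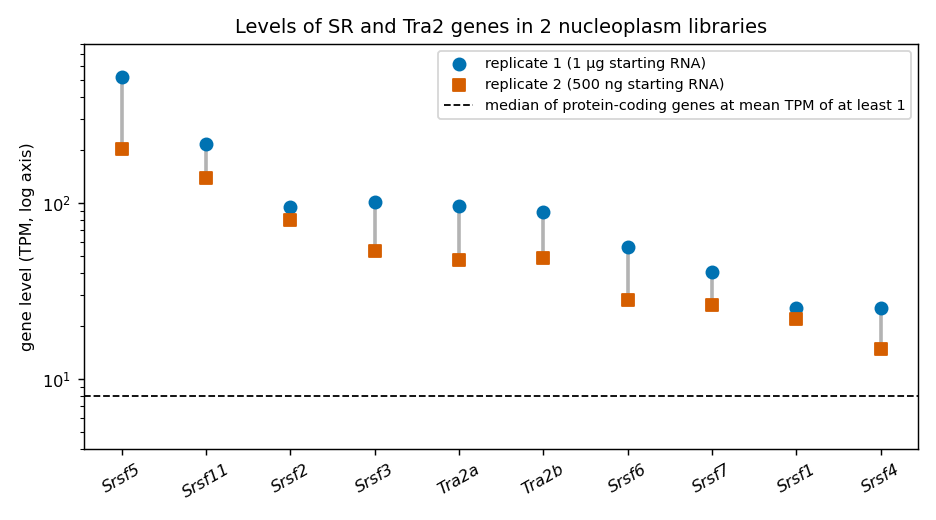
Level of each gene (TPM, log axis) in replicate 1 (circles) and replicate 2 (squares), in order of mean TPM; the dashed line is the median of protein-coding genes averaging 1 TPM or more. Every gene lies above that line, and replicate 2 lies below replicate 1 for all 10 genes.

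Among the classical SR genes with paired RNA recognition motifs, Srsf5 was the most abundant. Srsf5 (chr12:80945504-80950507, plus strand), a splicing factor that binds exonic enhancers, had 522 TPM in replicate 1 and 204 TPM in replicate 2, from 12792 and 7174 reads. It ranked 72 among the 9783 protein-coding genes. Its close relative Srsf6 (chr2:162931528-162937121, plus strand) had 56.4 TPM in replicate 1 and 28.1 TPM in replicate 2. Both genes were lower in replicate 2, with no overlap between them. Srsf4 (chr4:131873617-131901706, plus strand), the third gene of this similar trio, had 25.3 TPM in replicate 1 and 14.8 TPM in replicate 2. Srsf1 (chr11:88047373-88053755, plus strand), a founding member that binds purine-rich enhancers and shuttles between nucleus and cytoplasm, had 25.5 TPM in replicate 1 and 21.8 TPM in replicate 2, from 960 and 1012 reads. Its range thus overlapped that of Srsf4, though Srsf1 was the higher gene in each library.

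Srsf2, Srsf3 and Srsf7 each hold a single RNA recognition motif. Srsf2 (chr11:116849901-116853094, minus strand), which stays mostly in the nucleus and also acts in transcription elongation, had 95.3 TPM in replicate 1 and 80.5 TPM in replicate 2. Srsf3 (chr17:29032628-29043373, plus strand), the smallest SR protein and an adaptor for the mRNA export receptor Nxf1, had 101 TPM in replicate 1 and 53.6 TPM in replicate 2. Srsf7 (chr17:80200080-80207307, minus strand), a further Nxf1 adaptor that carries a zinc knuckle, had 40.7 TPM in replicate 1 and 26.4 TPM in replicate 2. Srsf2 differed least between the libraries among these 3 genes. Srsf2 overlaps Mfsd11 and Mettl23 on the opposite strand, with 1173 and 45.3 reads in replicate 1. Srsf4 overlaps Gm12992, with 86.2 reads there. The sources used here do not give a strand setting for the counting, so reads in those overlaps cannot be told apart.

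Srsf11 and the Tra2 genes were all abundant. Srsf11 (chr3:158010473-158036639, minus strand), an SR-related protein that in human cells contacts the factor that reads the 3′ splice site, had 216 TPM in replicate 1 and 138 TPM in replicate 2, from 6761 and 4482 reads. Tra2a (chr6:49243924-49264033, minus strand), a mammalian relative of the Drosophila sex determination factor transformer-2, had 96.3 TPM in replicate 1 and 47.2 TPM in replicate 2. Its paralog Tra2b (chr16:22244549-22266005, minus strand), known in human cells for promoting inclusion of an SMN exon, had 89.1 TPM in replicate 1 and 48.7 TPM in replicate 2. The ranges of the 2 Tra2 genes overlapped almost completely. Near-identical copies drew few reads: 9 copies of Srsf3, Srsf5 and Tra2b at 95% identity or more held at most 20.6 reads in either library, the highest being Gm12966, a copy of Srsf5.

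After scaling of the counts by the trimmed mean of M-values (TMM), the 10 genes were lower in replicate 2 than in replicate 1 by a median of -0.44 on the log2 scale, against -0.03 over 10441 genes. None of the 10 was beyond 2-fold, as were 8.96% of those genes. In 9 of 10 the ratio was below 1, as in 52.4% of those genes. Srsf5 had the lowest ratio, at a log2 value of -0.77, and Tra2a followed at -0.58. Srsf2 was level at -0.02, and Srsf1 alone was above 0, at 0.14. By the ratio of TPM all 10 were lower in replicate 2, as were 75.3% of all genes, whose median moved to -0.44. By that ratio 3 of the 10, Srsf5, Srsf6 and Tra2a, were beyond 2-fold, as were 16.9% of all genes. In 8 of 10 the ratio was below 1 with library size, as in 50.6% of all genes. These ratios compare the 2 libraries, which also differ in starting RNA, and its part in the ratios was not tested.

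**Figure D2:**
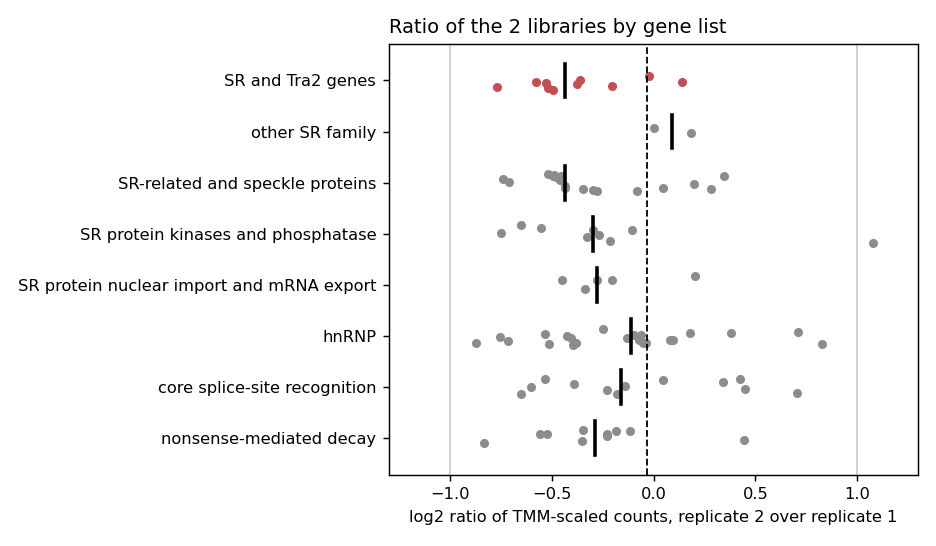
Log2 ratio of TMM-scaled counts, replicate 2 over replicate 1, for the SR and Tra2 genes (top row) and 7 lists of related genes averaging 50 counts or more; points are genes, black bars list medians, the dashed line the median of all genes and grey lines a 2-fold difference. The SR and Tra2 genes have a median of -0.44 and lie mostly left of the dashed line, as do the SR-related and speckle proteins.

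The genes of related machinery gave context for these values. The 18 SR-related and speckle proteins had a median of mean TPM of 64.9 and a median log2 ratio of -0.43. The 22 hnRNP genes, whose products often oppose SR proteins, had medians of 51.6 TPM and -0.11. The 9 kinase and phosphatase genes that set the phosphorylation of the arginine-serine tails had medians of 33.4 TPM and -0.30. The 10 NMD factors had medians of 13.2 TPM and -0.29, and the 12 core splice-site factors had medians of 21.0 TPM and -0.16. Beyond 2-fold between the libraries there was 1 gene in all 7 lists, in the kinase and phosphatase list. The 6 import and export genes had medians of 22.5 TPM and -0.28. The list of 3 other SR family genes had a median of 7.59 TPM, with Srsf10 at 39.9 TPM in replicate 1 and 28.0 TPM in replicate 2 and Srsf12 at 1 read in each library.

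In Srsf3, Srsf5, Srsf7, Srsf11, Tra2a and Tra2b most of the RNA was assigned to transcripts other than the protein-coding ones. By mean isoform percent, protein-coding transcripts held 55.4% in Srsf1, 53.1% in Srsf2, 61.6% in Srsf4 and 51.8% in Srsf6. The 10 genes have 84 annotated transcripts, of which 70 had a value above 0 in at least 1 library and 38 reached 10 isoform percent (the part of a gene's TPM given to 1 transcript) in at least 1 library. Of those 38, 16 were retained-intron, 6 NMD, 14 protein-coding and 2 processed transcripts. The median share of isoform percent in retained-intron transcripts was 43.0% over the 10 genes, against 26.8% over 4434 genes that have such a transcript and average 5 TPM or more. It was 43.9% in core splice-site factors, 39.0% in SR-related and speckle genes and 37.2% in kinase and phosphatase genes. NMD factors had 32.0%, and hnRNP genes and import and export genes had 22.0% each. The 3 other SR family genes have no annotated retained-intron transcript. The median in NMD transcripts over the 10 genes was 8.95%, against 5.22% over 2159 genes. The median in protein-coding transcripts was 32.2%, against 71.4% over all 6250 protein-coding genes at that level. Unlike the 10 genes, these include genes with no annotated retained-intron or NMD transcript, so this comparison partly reflects annotation. A retained-intron share cannot separate introns that are kept from RNA not yet spliced. Intronic reads outside annotated transcripts were not counted.

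**Figure D3:**
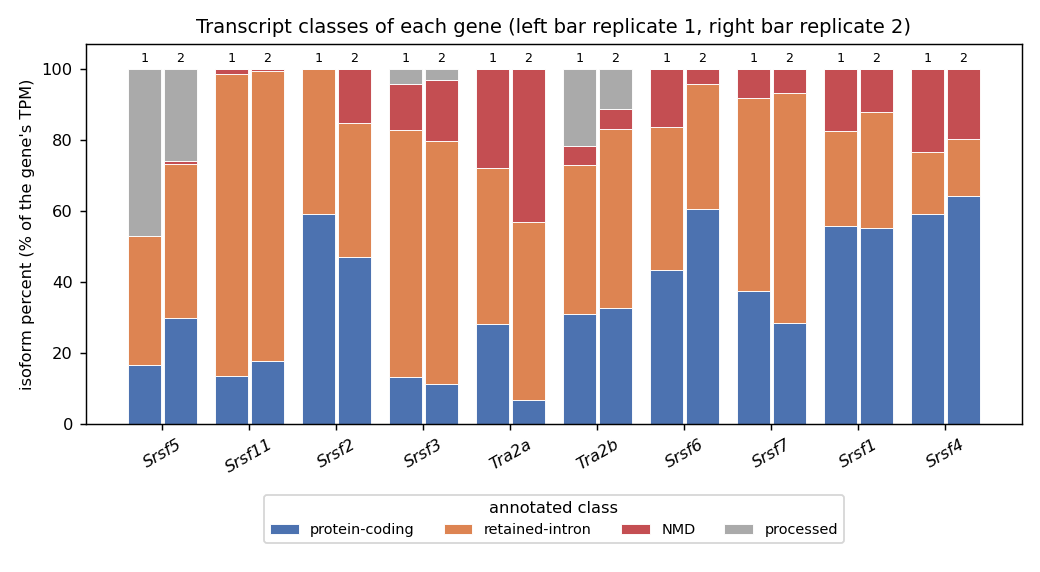
Share of each gene's TPM by annotated transcript class (isoform percent, stacked to 100), with replicate 1 as the left bar and replicate 2 as the right bar of each pair. Retained-intron transcripts make up most of Srsf11, Srsf3 and Srsf7 in both libraries. The protein-coding share is lowest in Srsf3, Srsf11 and, in replicate 2, Tra2a.

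In 5 of the 10 genes, Srsf3, Srsf7, Srsf11, Tra2a and Tra2b, retained-intron and NMD transcripts together held over 50% of the mean isoform percent, as they did in 21.0% of 4741 genes. Tra2b, at 51.6%, lay just above the limit, and Srsf6, at 48.2%, lay just below it. Srsf3, Srsf7, Srsf11 and Tra2a were above the limit in each library and by all 3 measures of a share: isoform percent, share of reads, and share of TPM in a second set of transcript tables. By reads Srsf5 was above it and Tra2b, at 48.8%, was not, which again gave 5 genes. By the second tables the count was 6 genes, with Srsf4 at 64.5%, Srsf6 at 57.7% and Tra2b below it at 48.9%. Replicate 2 alone also gave 6 genes. The median of this joint share over 4741 genes was 29.6% by isoform percent, 17.5% by reads and 35.5% in the second tables. Over the 10 genes it was 49.9%, 57.2% and 57.3%. In replicate 2 alone it was 54.5% over the 10 genes and 28.2% over 4480 genes. Among the related lists, 7 of 18 SR-related and speckle genes and 5 of 9 kinase and phosphatase genes were above 50%. So were 5 of 10 core splice-site factors, 7 of 18 hnRNP genes and 2 of 6 NMD factors. Of the import and export genes, 0 of 4 were. These counts take genes that have a transcript of either class. The median joint share was 56.2% in the kinase and phosphatase genes, 46.3% in the SR-related and speckle genes and 40.1% in the core factors. Short transcripts weigh more in a share of TPM than in a share of reads.

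Srsf11 carried the highest retained-intron share, 85.1% in replicate 1 and 81.8% in replicate 2. It was spread over several transcripts that cover part of intron 3 of the coding transcript Srsf11-204. Srsf11-213 held 27.1% in replicate 1 and 14.3% in replicate 2, Srsf11-208 held 23.2% and 18.6%, and Srsf11-203 held 12.4% and 17.1%. A further one, Srsf11-211, covers part of intron 11 and held 6.76% in replicate 1 and 19.8% in replicate 2. The coding transcript Srsf11-202 held 6.64% in replicate 1 and 12.9% in replicate 2.

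Srsf3 had 69.5% of its isoform percent in retained-intron transcripts in replicate 1 and 68.7% in replicate 2. Srsf3-210 is a single exon of 2836 bases in the 5′ part of the gene that covers part of intron 1. It held 30.8% in replicate 1 and 26.0% in replicate 2, or 1387 and 763 reads. Srsf3-204, which keeps introns 3 and 4 whole, held 23.6% in replicate 1 and 29.4% in replicate 2, or 1541 and 1249 reads. Srsf3-210 thus led by isoform percent in replicate 1, and Srsf3-204 led in replicate 2 and by reads in both libraries. Srsf3-205, which begins within the premature-stop exon and runs on into intron 3, held 15.2% in replicate 1 and 13.3% in replicate 2. The only coding transcript, Srsf3-202, held 13.2% in replicate 1 and 11.1% in replicate 2. It was thus close to the NMD transcript Srsf3-201, at 12.9% in replicate 1 and 17.1% in replicate 2.

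Srsf7 kept intron 3 whole in Srsf7-207, at 32.3% in replicate 1 and 40.7% in replicate 2, and in Srsf7-206, at 15.0% and 14.5%. Its leading coding transcript by isoform percent, Srsf7-201, lay between them at 22.9% in replicate 1 and 23.0% in replicate 2. In the second tables Srsf7-201 held only 7.89% in replicate 1 and 7.71% in replicate 2, below both of them. Another coding transcript of Srsf7 led there, at 24.1% in replicate 1 and 23.4% in replicate 2. Srsf6 kept intron 2 whole in Srsf6-204, at 40.4% in replicate 1 and 35.4% in replicate 2. Its coding transcript Srsf6-203 held 43.2% in replicate 1 and 59.8% in replicate 2. The NMD transcript Srsf6-201 held 16.4% in replicate 1 and 4.14% in replicate 2, from 228 and 35.5 reads. In the second tables it held 20.7% in replicate 1 and 14.2% in replicate 2, a smaller difference.

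Srsf4 had the highest coding share of the 10 genes by mean isoform percent, at 61.6%. By reads Srsf1 was higher, at 88.4% against 66.2% for Srsf4, and in the second tables Srsf4 had 35.5%, below Srsf2 at 54.9%. Its coding transcript Srsf4-202 held 59.0% in replicate 1 and 64.3% in replicate 2. The NMD transcript Srsf4-204 held 18.5% in replicate 1 and 18.1% in replicate 2, and the retained-intron transcript Srsf4-201, which covers part of intron 1, held 17.6% and 15.9%.

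The 2 Tra2 genes differed in their NMD share, while by isoform percent retained-intron transcripts were the largest class in both genes and both libraries. In the second transcript tables NMD led in Tra2a, at 51.1% in replicate 1 and 49.6% in replicate 2, against 43.9% and 47.4% retained-intron. By reads the Tra2b coding share in replicate 1, 43.6%, exceeded the retained-intron share, 42.2%. In Tra2a the NMD transcript Tra2a-202 held 27.9% in replicate 1 and 43.2% in replicate 2, from 854 and 802 reads, the highest NMD share of the 10 genes. Its other large transcript was Tra2a-203, a single exon of 3788 bases at the 5′ end that covers part of intron 1, at 35.9% in replicate 1 and 40.5% in replicate 2. The coding transcripts of Tra2a summed to 28.0% in replicate 1 and 6.79% in replicate 2. Tra2a-201 had 454 reads in replicate 1 and 0 reads in replicate 2. That 0 is an estimated split of reads shared by overlapping transcripts, so it sets no upper limit. In the second transcript tables the coding share of Tra2a was 4.92% in replicate 1 and 3.03% in replicate 2, so the difference between the libraries was small there. In Tra2b the NMD transcripts held only 5.25% in replicate 1 and 5.67% in replicate 2. By isoform percent the retained-intron transcript Tra2b-203 led with 31.2% in replicate 1 and 39.9% in replicate 2. The processed transcript Tra2b-202 held 21.9% and 11.4%. By reads the coding transcript Tra2b-204 led in both libraries, at 33.5% in replicate 1 and 35.9% in replicate 2. Tra2b-203 then held 22.5% and 26.3%, and Tra2b-202 held 9.86% and 4.75%. The coding transcripts Tra2b-204 and Tra2b-201 had mean shares of 18.3% and 13.4% by isoform percent.

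**Figure D4:**
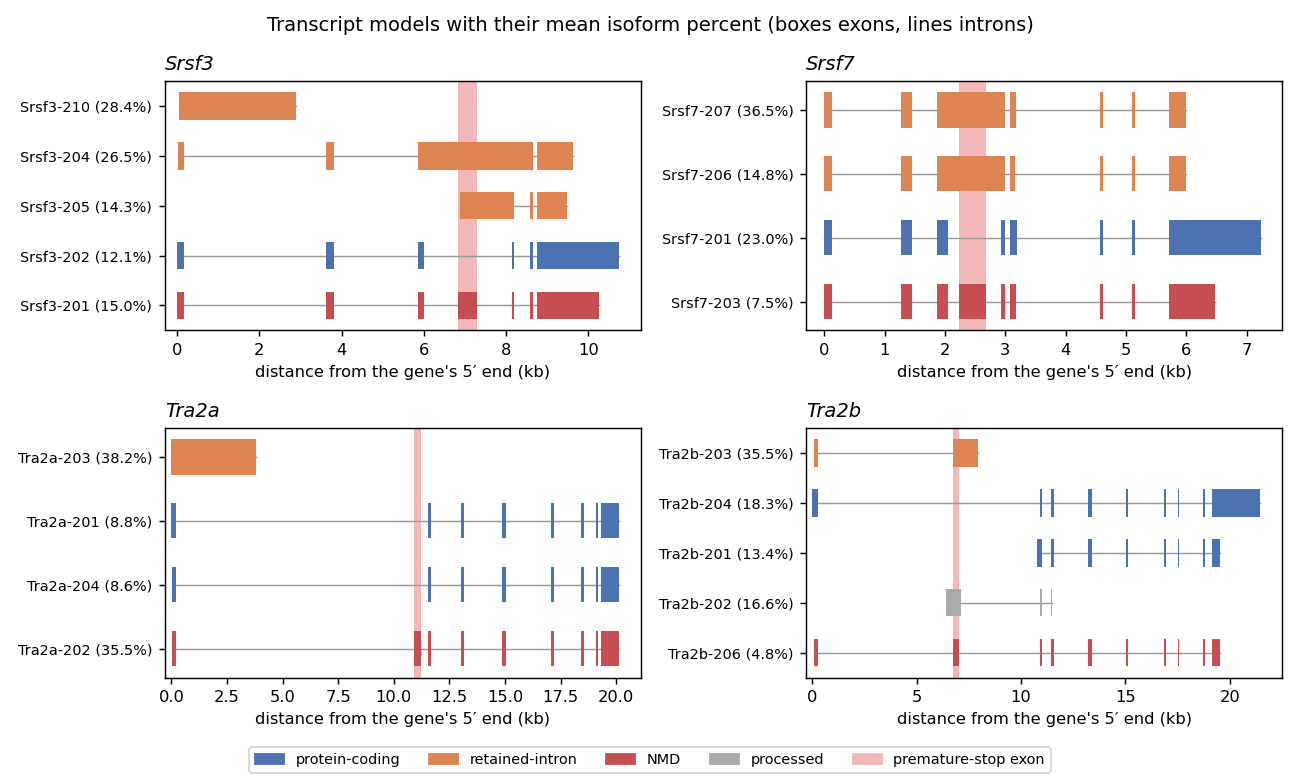
Transcript models of Srsf3, Srsf7, Tra2a and Tra2b, by distance from the gene's 5′ end (kb), with boxes for exons, lines for introns, colour for the annotated class and each transcript's mean isoform percent in parentheses; the pink band is the premature-stop exon. Retained-intron boxes run across the band in Srsf3, Srsf7 and Tra2b, while in Tra2a the exon appears as a spliced NMD exon.

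The 3 genes with no premature-stop cassette exon reached their other classes differently. In Srsf5 the processed transcript Srsf5-206, whose last exon lies in intron 5, held 37.1% in replicate 1 and 16.6% in replicate 2, from 2177 and 479 reads. Srsf5-212, which keeps intron 5 whole, held 29.5% in replicate 1 and 33.6% in replicate 2, from 6572 and 3588 reads. The coding transcript Srsf5-201 held 6.93% in replicate 1 and 18.0% in replicate 2, from 804 and 1011 reads. Its reads were higher in replicate 2 while those of Srsf5-206 were lower. NMD transcripts of Srsf5 held 0.06% in replicate 1 and 0.67% in replicate 2.

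Srsf2 had 40.8% in replicate 1 and 37.7% in replicate 2 in Srsf2-203, which keeps introns 2 and 3 of Srsf2-206. Its NMD transcript Srsf2-204 had 0 reads in replicate 1 and 106 reads, or 15.2%, in replicate 2. The coding transcript Srsf2-201 held 45.4% in replicate 1 and 39.2% in replicate 2. In Srsf1 the coding transcripts held 55.6% in replicate 1 and 55.1% in replicate 2, led by Srsf1-201, which keeps intron 3 and still counts as coding. The class labels thus do not capture every kept intron. The NMD transcript Srsf1-204 held 17.5% in replicate 1 and 12.2% in replicate 2. Srsf1-203, a retained-intron transcript of 759 bases, held 20.6% in replicate 1 and 31.0% in replicate 2. By share of reads the coding transcripts of Srsf1 held 88.4% on average, so its retained-intron share rests on short transcripts.

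At the premature-stop exons of these 7 genes, intron-containing RNA was usually more abundant than the spliced exon. Transcripts of each of the 7 genes were grouped as skipping the exon, including it as a spliced exon, holding it together with flanking intron, or not reaching it. Overlap with part of the exon was enough to count as including or holding it. Srsf3-205 and a retained-intron transcript of Srsf7 thus counted with flanking intron although they begin after the stop codon. RNA with the exon in flanking intron exceeded RNA with the spliced exon in 5 of 7 genes, by each of the 3 measures. This comparison was not made over other genes. Medians over the 7 genes were 26.2% skipping, 10.6% spliced and 40.7% with intron. The skipping median was 36.2% in replicate 1 alone and 19.9% in replicate 2 alone, and the spliced median was 12.9% and 6.78%. By reads skipping, at 34.4%, was close to the exon with intron, at 35.6%. In Tra2b 53.1% in replicate 1 and 51.2% in replicate 2 held the exon with intron, against 5.25% and 5.67% with the spliced exon. Srsf7 had 54.6% in replicate 1 and 65.0% in replicate 2 with intron, against 8.15% and 6.78% spliced. Srsf4 and Tra2a were the exceptions, with no annotated transcript that holds the exon with intron. Srsf4 mostly skipped its exon by isoform percent, at 59.0% in replicate 1 and 64.3% in replicate 2. In the second tables skipping of the Srsf4 exon, at 33.2% in replicate 1 and 37.8% in replicate 2, was close to the spliced exon, at 34.4% and 33.1%. Most of the spliced share of Srsf4 was Srsf4-204, which begins within the exon, with means of 18.3 isoform percent and 21.8% in the second tables. Only Srsf4-203, with means of 3.37 isoform percent and 11.9% in the second tables, joins that exon to an upstream exon. In Srsf11 the spliced share depended on the table, at 1.03% by isoform percent and 12.6% in the second tables.

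**Figure D5:**
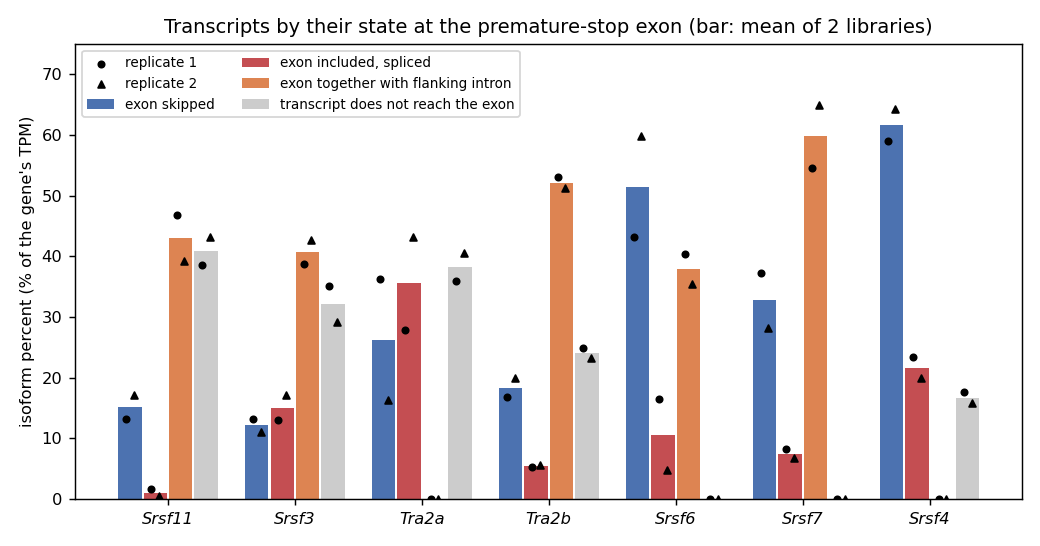
Isoform percent of 7 genes by the state of the transcript at the premature-stop exon; bars are means of the 2 libraries, circles replicate 1 and triangles replicate 2. The bar for the exon with flanking intron is above the bar for the spliced exon in Srsf3, Srsf6, Srsf7, Srsf11 and Tra2b.

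The retained-intron RNA of these 7 genes was largely assigned to transcripts that touch the intron holding the stop exon. Transcripts covering all or part of that intron made up a median of 81.2% of the retained-intron isoform percent, and over 50% of it in 7 of 7 genes. In Srsf7 they were 3 of 3 retained-intron transcripts and in Srsf11 6 of 11. In Srsf7 and Srsf11 that intron is 17.7% and 16.4% of all intron length, and in Srsf3 it is 26.5%. In Srsf4, Srsf6, Tra2a and Tra2b it takes 58.8 to 67.1% of intron length, so a transcript placed anywhere would often touch it. How far annotation of these introns favours such transcripts was not tested. Each transcript counted with its whole isoform percent, even where, as with Tra2a-203, it does not reach the stop exon. Srsf4 and Srsf6 have 1 retained-intron transcript each, so their share is all or none. No such share was taken over other genes.

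Retained-intron reads were lower in replicate 2 in 8 of the 10 genes, as in 67.7% of 3088 genes, the exceptions being Srsf1 and Srsf2. Coding reads were lower in 8 of 10, as in 48.6% of 8459 genes, the exceptions being Srsf1 and Srsf11. The median TMM-scaled log2 ratio was -0.50 for retained-intron reads, against -0.25 over all genes, and -0.23 for coding reads, against 0.02 over all genes. The retained-intron ratio lay below the coding ratio in 4 of 10 genes, as it did in 54.0% of 2871 genes. In Srsf5 the retained-intron ratio was -0.72 and the coding ratio -0.13. In Srsf3 the order was the other way, with a retained-intron ratio of -0.51 and a coding ratio of -0.80.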

How the data were processed

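For each library the authors deposited 1 table by gene and 2 by transcript, built on mm10 and GENCODE M21 according to their text files. The deposited gene tables and first transcript tables hold expected counts and TPM, and those by transcript add the isoform percent, per the file headers. Estimated counts and TPM fill the second deposited transcript tables, per the file headers. No source used here names the tools, though RSEM and kallisto use these column names. Deposited bounds on TPM (credibility limits) and the standard deviation of the count, of other units, are printed nowhere.

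The 26345 features outside the annotation, spike-ins included (1.19% of counts in replicate 1, 0.213% in replicate 2), stayed out of library sizes. Whole-number rounding of the expected counts preceded TMM scaling with edgeR 4.0.16 under R 4.3.3. Ratios used genes averaging 50 counts or more, with no p-value. DESeq2 1.42.0 size factors were an alternative. Copies were found with BLAST+ 2.17.0 (at least 95% identity over 200 bases). Sequences came from GENCODE M21 transcripts and no other. The scaling and the ratio between libraries were tested on simulated gene counts, and the transcript shares and the stop-exon grouping were not.

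The genes, the 7 related lists (80 genes, all found) and the tests were chosen with earlier results of these data known; the premature-stop exon grouping was chosen after seeing the data. Named items were the 10 genes, their transcripts at 10 isoform percent or more in either library, with the stop exons' NMD transcripts added after seeing values, and the first and last gene of each list by mean TPM. Introns are numbered in the consensus coding transcript with most introns at a mean of at least 1 isoform percent. Mfsd11, Mettl23, Gm12992 and Gm12966 were named for overlap or likeness to a member.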

Additional observations from a re-analysis of the deposited data

How the results depend on the processing

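The log2 ratio of Srsf2, near 0, was above 0 by library size, DESeq2 size factors and the second tables; the other 9 genes kept their sign in these, and Srsf1 fell below 0 by the ratio of TPM. By share of reads the median retained-intron share was 50.9%, the NMD share 4.93% and the coding share 39.1%. In the second transcript tables the NMD share was 11.4%, the coding share 35.7% and the median TPM 35.0. With short structural and mitochondrial RNA left out of the TPM sum, the median TPM was 210. By the ratio of TPM, 3 of 10 genes were beyond 2-fold, as were 16.9% of all genes. Over 50% in retained-intron and NMD transcripts were 5 or 6 genes on leaving out 1 library, 5 by reads and 6 in the second tables. The share of all genes above 50% is given only for isoform percent over both libraries, at 21.0%. Leaving out 1 library gave retained-intron shares of 41.4 to 46.7%, NMD shares of 9.50 to 10.5%, coding shares of 31.2 to 34.0% and median TPM of 48.0 to 92.2. The skipping and spliced medians at the stop exon were 34.4% and 8.25% by reads and 18.8% and 12.6% in the second tables. The median share with the stop exon in intron was 35.6% by reads, 32.5% in the second tables and 39.3 to 40.4% on leaving out 1 library. By construction, share of reads weights long transcripts more; the cause of the other differences was not tested. No paired analysis was possible because there is 1 group. With 2 libraries, no outlier could be sought. By reads, 7 of 10 retained-intron shares and 3 of 10 NMD shares of single genes moved by more than their spread between libraries; 4 and 5 did so in the second tables. Reads shared by overlapping transcripts are divided by estimate, and that error is not in the spreads.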

Other observations

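Outside the 10 genes, the related lists were led by Rbm39 (441 ± 217 TPM, mean ± SD of 2 libraries), an RNA-binding partner of the splice-site factors, among SR-related proteins. Clk1, a kinase of SR proteins, led the kinases with 230 ± 51.0 TPM, and Nxf1, the mRNA export receptor, led the import and export genes with 176 ± 92.0 TPM. Hnrnpa2b1 led the hnRNP genes with 517 ± 261 TPM, Sf3b1 the core factors with 155 ± 72.8 TPM and Smg1, a kinase of the decay pathway, the NMD factors with 69.1 ± 31.7 TPM. The lowest genes were Rnps1 (13.7 TPM), Ppp1ca (12.2 TPM), Nxt1 (0.68 TPM), Hnrnpr (9.29 TPM), Snrpc (2.65 TPM) and Smg8 (1.94 TPM). Ppp1ca, a phosphatase catalytic subunit, was the gene beyond 2-fold in the kinase and phosphatase list, with 158 reads in replicate 1 and 319 reads in replicate 2.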
